A study of Mus musculus with 40 samples.

Results

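Il10 encodes interleukin-10, a secreted cytokine that restrains inflammation, and Foxp3 encodes the transcription factor that defines regulatory T cells. Both were measured as TaqMan real-time PCR assays in mouse colonic mucosa, Il10 by Mm01288386_m1 and Foxp3 by Mm00475162_m1, and they make up 2 of the 224 assays of the table. They were taken by assay ID across all 40 samples. The deposited table lists IDs without genes, so the names Il10 and Foxp3 (mouse gene IDs 16153 and 20371 in RefSeq) are the assay vendor's and could not be checked against the table. The samples form 4 groups of 10. CEC mice and Nissle mice were mono-associated, that is, each had carried 1 Escherichia coli strain (CEC or Nissle) as its single bacterium for 21 days, conventional mice carried a full microbiota for a time the labels do not give, and germ-free mice carried no microbes and served as the control. No transgene or drug is named for any group, and the sources used here give no mouse strain, age or sex. Length of colonisation and kind of microbiota cannot be told apart between mono-associated and conventional mice. The design text speaks of RNA pooled in equal amounts from the mice while 40 samples are listed, so a sample need not be 1 animal. The p-values then rest on how far samples of a group differ, and that spread may be technical.

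As background, interleukin-10 acts through a receptor built from the products of Il10ra and Il10rb and signals through the transcription factor STAT3. In the gut it is made by regulatory T cells, macrophages and other immune cells, and mice that lack it can develop colitis when microbes are present. Foxp3-expressing regulatory T cells are a source of interleukin-10 in the colon, and part of them arise there in response to the microbiota. Both transcripts are ascribed mainly to immune cells, a minor part of colonic mucosa, and their cell source was not tested here. In whole mucosa, fewer cells of a type and less RNA per cell cannot be told apart.

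The readout is the threshold cycle (Ct), the PCR cycle at which fluorescence crosses a set level, so that a lower Ct means more template. A Ct of 40 marks an undetermined well, in which no crossing was recorded. Log2 relative expression is the median Ct of the sample over the 203 assays without any Ct of 40, minus the Ct of the assay. A value of 0 therefore stands for a Ct equal to the sample's median Ct, and each unit is a doubling if the PCR doubles the product in every cycle. Amplification can differ between assays, so a level of Il10 is not set against a level of Foxp3. Neither assay held any of the 156 values of the table that had been filled in before deposit. The sample median Ct was 22.7 ± 0.838 in CEC, 22.3 ± 0.488 in Nissle, 21.96 ± 0.288 in conventional and 22.5 ± 0.309 cycles in germ-free samples (SD, n = 10 each), and 6 to 15 assays were undetermined in a sample. Over the assays measured in all samples, Nissle replicate 8 and CEC replicate 6 lay farthest from the rest of their group, by a median of 1.12 and 0.889 log2 units, and the other samples lay at most 0.752 away.

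Both transcripts were scarce. Il10 was measured in 28 of 40 samples, with a median Ct of 29.66, and only 9 of the 224 assays had a later median Ct. Foxp3 was measured in 22 of 40 samples, with a median Ct of 29.96, and 5 assays had a later one. The latest measured Ct was 31.72 for Il10 and 30.91 for Foxp3, and among all 224 assays 5 measured values were later than the Il10 one and 69, in 27 assays, were later than the Foxp3 one. A Ct above 30 was found in 10 of the 28 measured Il10 wells and in 9 of the 22 measured Foxp3 wells. An undetermined well therefore stands for template that was not detectable here, not for its absence.

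**Figure D1:**
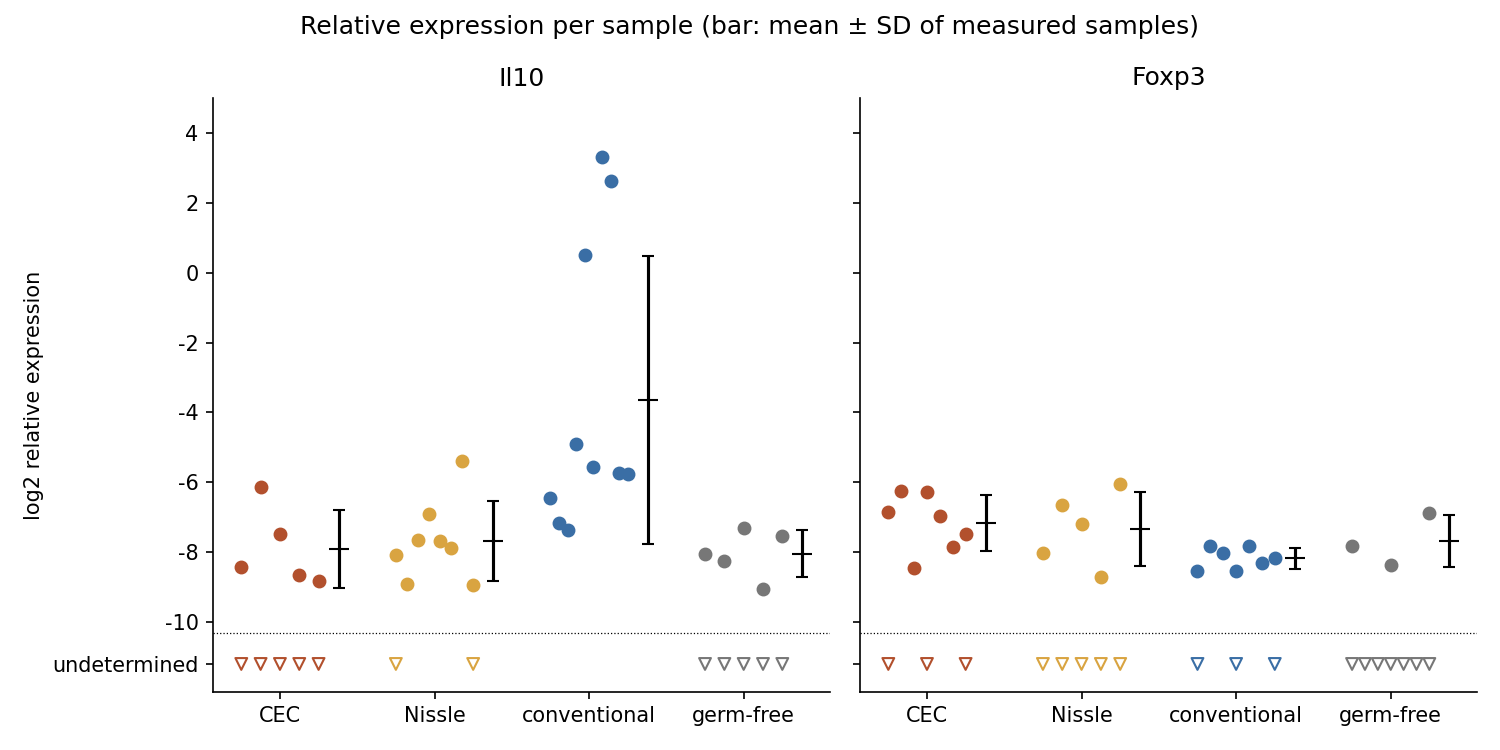
Log2 relative expression of Il10 (left) and Foxp3 (right) in each sample, by group, with the mean and SD of the measured samples as a black bar; open triangles under the dotted line are undetermined wells and have no value. All 10 conventional samples had a measured Il10, 3 of them at 0.49 to 3.31, while Foxp3 stayed between -8.71 and -6.05 wherever it was measured.

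Il10 was higher in conventional mucosa than in each of the other 3 groups, while the measured CEC, Nissle and germ-free samples overlapped at low values. Il10 was measured in 5 of 10 CEC, 8 of 10 Nissle, 10 of 10 conventional and 5 of 10 germ-free samples. Conventional samples averaged -3.65 ± 4.13 log2 units (SD, n = 10), and this mean lies where no sample does. The 3 highest conventional samples were replicate 7 at 3.31, replicate 8 at 2.64 and replicate 5 at 0.49, with a Ct of 18.34, 19.02 and 21.82. The other 7 conventional samples ran from -7.35 in replicate 3 to -4.91 in replicate 4, with a Ct of 27.29 to 29.34. None lay between -4.91 and 0.49. The sample median Ct of replicates 5, 7 and 8 was 22.32, 21.65 and 21.66 cycles, inside the conventional range of 21.62 to 22.38. Replicates 7 and 8 lay near its early end and replicate 5 near its late end. The part of template amount in their high Il10 was not tested. The SD of Il10 in conventional samples was the second largest of 216 assays measured in at least 5 of them, whose median SD was 0.461.

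The CEC samples with a measured Il10 were replicate 3 at -6.13, replicate 5 at -7.49, replicate 2 at -8.43, replicate 7 at -8.65 and replicate 10 at -8.82 log2 units, and replicates 1, 4, 6, 8 and 9 were undetermined. The 8 measured Nissle samples ran from -8.93 to -5.39 with a median of -7.78, and replicates 9 and 10 were undetermined. Nissle replicate 7 was the highest of them, at a Ct of 26.95, and the next earliest Il10 well outside the conventional group had a Ct of 28.85. The germ-free samples with a measured Il10 were replicate 30 at -7.31, replicate 33 at -7.54, replicate 11 at -8.06, replicate 12 at -8.24 and replicate 31 at -9.06 log2 units, and replicates 10, 20, 21, 22 and 32 were undetermined. The measured ranges of these 3 groups overlapped, and the Nissle and CEC ranges reached higher than the germ-free one.

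Setting conventional against germ-free samples asks what a full microbiota does to the level in mucosa. The log2 difference in Il10 was 4.39 with a 95% interval of 1.55 to 7.23 (limma, adjusted p = 0.0309), between means of -3.65 ± 4.13 in 10 conventional and -8.04 ± 0.681 in 5 measured germ-free samples. The germ-free mean lay below each of the 10 conventional samples, and 9 of these exceeded every measured germ-free sample. The exception was conventional replicate 3. By limma 17.8% of the 214 assays tested changed in this comparison, so a call alone is not rare here. Undetermined wells do not enter that fit. When they were ranked as the lowest values, Il10 stood 9.8 ranks higher on average in conventional samples, of 10 possible (exact permutation test over samples, p = 2.17e-05, adjusted p = 0.000693), beside 18.3% of 224 assays that passed the same test. On Ct alone, with no normalization, the latest conventional Il10 well (29.34) came before the earliest germ-free one (29.91).

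The size of the Il10 difference rested on the 3 high conventional samples, while its direction did not. The log2 difference from germ-free was 3.62 without conventional replicate 7, 3.69 without conventional replicate 8 and 1.91 without replicates 5, 7 and 8 together (limma, adjusted p = 0.025), a setting chosen after their values had been seen. The call was lost when only these 2 groups were fitted (limma, adjusted p = 0.0905), without germ-free replicate 11 (0.0542), 12 (0.0518) or 31 (0.0622) and without conventional replicate 9 (0.0506), with log2 differences of 4.39, 4.39, 4.34, 4.14 and 4.62. With undetermined wells set 1 cycle above the highest Ct of the table, the difference was 7.95 (limma, adjusted p = 0.000625). This setting, also used below, puts them at 37.67 cycles, past the latest measured Ct of 31.72 for Il10 and 30.91 for Foxp3. The size of a difference under it therefore depends on that choice and on how many wells were undetermined.

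Both mono-associated groups lay below conventional mucosa in Il10. The difference for CEC minus conventional was -4.25 log2 units, or 19.0-fold lower after CEC, with an interval of -7.09 to -1.41 (limma, adjusted p = 0.0235), and 4 of the 5 measured CEC samples lay below every conventional sample. For Nissle minus conventional it was -4.03, or 16.3-fold lower in Nissle, with an interval of -6.49 to -1.57 (limma, adjusted p = 0.0174), and 6 of the 8 measured Nissle samples lay below every conventional sample. Without Nissle replicate 8, which lay farthest from its group over the panel, it was -3.85 (limma, adjusted p = 0.032). In these comparisons 25.7% and 26% of all assays tested changed by limma. With undetermined wells ranked lowest, Il10 passed against conventional samples for CEC (exact permutation test, p = 7.58e-05, adjusted p = 0.00188) and for Nissle (p = 0.000725, adjusted p = 0.00812), beside 29.6% and 25.9% of all assays.

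The 3 comparisons with conventional mucosa share the conventional samples, so the same 3 high samples enter each. Without conventional replicates 5, 7 and 8 the difference was -1.77 for CEC (limma, adjusted p = 0.021) and -1.54 for Nissle (0.0272). Without replicate 7 it was -3.48 for CEC and -3.26 for Nissle, and without replicate 8 it was -3.55 for CEC and -3.33 for Nissle. The call for CEC was lost when only the 2 groups were fitted (limma, adjusted p = 0.0972) and without CEC replicate 2 (-4.12, 0.0529), 7 (-4.06, 0.0529) or 10 (-4.02, 0.052). It was also lost with the replicate number as a block (-4.61, limma, adjusted p = 0.121), while the call for Nissle held (-4.55, 0.0342). The labels do not say that these numbers pair samples. With sample quality weights the CEC difference was -3.65. With undetermined wells 1 cycle above the highest Ct, the differences were -7.64 for CEC and -5.47 for Nissle.

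Mono-association with a single strain was set against germ-free mucosa to ask whether 1 bacterium changes Il10. CEC samples averaged -7.90 ± 1.12 (5 measured) and germ-free samples -8.04 ± 0.681 (5 measured), a difference of 0.14 with an interval of -3.14 to 3.42 (limma, adjusted p = 0.962). Nissle samples averaged -7.68 ± 1.14 (8 measured), a difference from germ-free of 0.36 with an interval of -2.59 to 3.32 (limma, adjusted p = 0.918). The 2 strains differed by -0.22 for CEC minus Nissle, with an interval of -3.18 to 2.73 (limma, adjusted p = 0.965). These intervals are wide because all 4 groups share 1 estimate of the spread, to which the conventional samples add most, and they do not show that the groups are alike. With undetermined wells 1 cycle above the highest Ct, the difference was 0.31 for CEC minus germ-free, 2.48 for Nissle minus germ-free and -2.17 for CEC minus Nissle, and none passed (limma, adjusted p = 0.912, 0.387 and 0.464). By limma 8.45% of assays changed for CEC and 6.51% for Nissle against germ-free, and 3.27% between the strains.

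The rank test, which uses the undetermined wells, gave no call for Il10 among these 3 groups either: p = 0.995 for CEC against germ-free, 0.18 for Nissle against germ-free and 0.236 for CEC against Nissle (exact permutation test, adjusted p = 1, 0.438 and 0.6). In the same test 6.28% of assays passed for CEC and 8.93% for Nissle against germ-free. Between the strains 0% of 223 assays passed, while 31 had an unadjusted p under 0.05 and limma called 7.

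**Figure D2:**
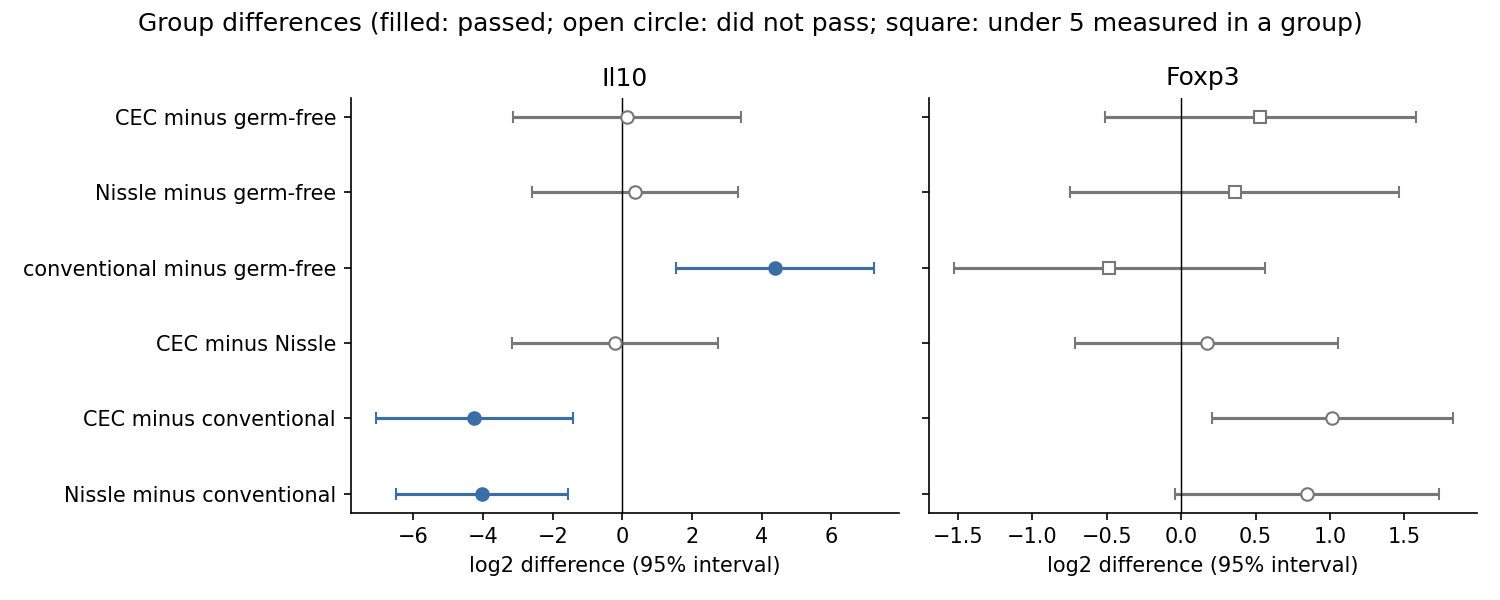
Log2 differences in relative expression of Il10 (left) and Foxp3 (right) in the 6 comparisons, the first-named group minus the second, with 95% intervals; the 2 panels have different horizontal scales. The 3 Il10 differences that involve conventional samples exclude 0 and passed, and the 3 Foxp3 differences from germ-free fell under the minimum of 5 measured samples per group, since 3 germ-free samples had a measured Ct.

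No Foxp3 difference that was tested passed in the main fit, which took all samples of the 4 groups without weights. The differences from germ-free were not tested in it. Foxp3 was measured in 7 of 10 CEC, 5 of 10 Nissle, 7 of 10 conventional and 3 of 10 germ-free samples, so germ-free mucosa had the fewest. Where it was measured, the means were -7.16 ± 0.809 in CEC, -7.33 ± 1.06 in Nissle, -8.17 ± 0.306 in conventional and -7.69 ± 0.743 in germ-free samples. Conventional samples with a measured Foxp3 were thus the lowest on average and the closest together, from -8.55 to -7.82 with a median of -8.16. Of the 216 assays measured in at least 5 conventional samples, 183 had a larger SD. The measured conventional Foxp3 wells had a Ct of 29.86 to 30.86, close to the latest Foxp3 Ct of all samples (30.91). The part of the detection limit in this small spread was not tested. Before normalization the median measured Foxp3 Ct was 29.97 in conventional and 29.96 in CEC samples.

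The 7 measured CEC samples ran from -8.44 to -6.26 log2 units with a median of -6.97, and CEC replicates 3, 8 and 10 were undetermined. The measured Nissle samples were replicate 7 at -6.05, replicate 2 at -6.66, replicate 3 at -7.20, replicate 1 at -8.03 and replicate 5 at -8.71, and replicates 4, 6, 8, 9 and 10 were undetermined. The measured germ-free samples were replicate 30 at -6.89, replicate 11 at -7.82 and replicate 20 at -8.36. The ranges of all 4 groups overlapped. Nissle replicate 7 had the highest Foxp3 of all samples and also the highest Il10 outside the conventional group, and it had the earliest sample median Ct, at 21.57 cycles. The part of template amount in this was not tested.

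Foxp3 averaged 1.01 log2 units higher in CEC than in conventional samples, with an interval of 0.21 to 1.82 (limma, adjusted p = 0.0571), which missed the threshold of 0.05, and 5 of 7 measured CEC samples lay above every conventional sample. The difference crossed the threshold under some settings. It passed when only the 2 groups were fitted (limma, adjusted p = 0.0333), when samples were weighted by quality (0.0234), and when CEC replicate 4 (0.0208) or CEC replicate 7 (0.048) was left out. With the replicate number as a block it passed at 1.41 (0.0194). The quality weights called 106 of all assays in this comparison, against 55 in the main fit, so a pass under them is common. Without normalization the Foxp3 difference was 0.55 (limma, adjusted p = 0.419), and with undetermined wells 1 cycle above the highest Ct it was 1.15 (0.662). When undetermined wells were ranked lowest, it did not pass (exact permutation test, p = 0.189, adjusted p = 0.332), and 3 samples of each group were undetermined. CEC replicate 6, which lay apart from the other CEC samples over the panel, had a Foxp3 value of -6.97 and an undetermined Il10. Without it the Foxp3 difference was 0.98 (limma, adjusted p = 0.0704).

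Nissle minus conventional gave a Foxp3 difference of 0.84 with an interval of -0.04 to 1.73 (limma, adjusted p = 0.142), and 1.19 without Nissle replicate 5 (0.0385). With undetermined wells 1 cycle above the highest Ct it turned to -0.84, as Nissle had 5 undetermined wells and conventional samples 3. CEC minus Nissle gave 0.17 with an interval of -0.71 to 1.06 (limma, adjusted p = 0.859), and 1.99 with undetermined wells 1 cycle above the highest Ct (0.532). With undetermined wells ranked lowest neither of these passed (exact permutation test, p = 0.858 for Nissle against conventional and 0.391 for CEC against Nissle, adjusted p = 0.956 and 0.737). Against germ-free the differences in measured samples were 0.53 for CEC, 0.36 for Nissle and -0.48 for conventional samples. With 3 measured germ-free samples these fell under the minimum of 5 for a test, and with the minimum lowered to 3 they did not pass (limma, adjusted p = 0.538, 0.746 and 0.588). Without normalization the difference for conventional samples turned to 0.09. With undetermined wells ranked lowest, CEC lay 4.7 mean ranks above germ-free (exact permutation test, p = 0.0623, adjusted p = 0.198), Nissle 2.3 (p = 0.358, adjusted p = 0.595) and conventional 3.1 (p = 0.219, adjusted p = 0.406). For conventional samples the measured values and the ranks point in opposite directions, because more conventional than germ-free samples had a Foxp3 signal at all.

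**Figure D3:**
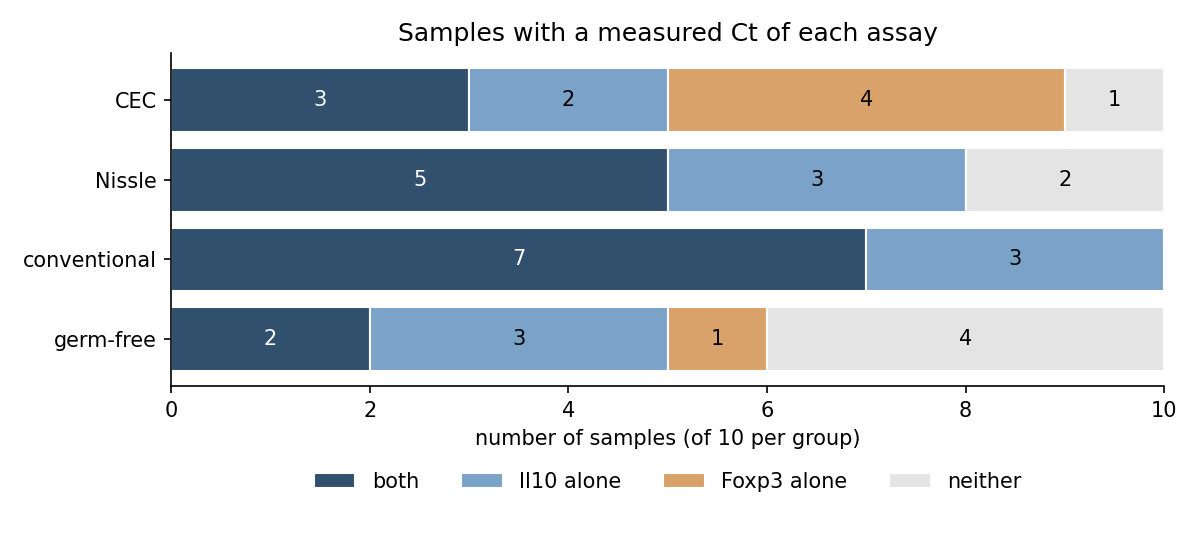
Number of samples per group, of 10, in which both assays, Il10 alone, Foxp3 alone or neither had a measured Ct. Both were measured in 7 conventional and 2 germ-free samples, and neither in 0 conventional and 4 germ-free samples.

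Detection was compared as a readout of its own. Il10 was detected in 5 of 10 CEC samples, against 10 of 10 conventional samples (Fisher's exact test, p = 0.0325), and in 10 of 10 conventional samples, against 5 of 10 germ-free samples (p = 0.0325). Neither passed after adjustment over the assays with undetermined wells (adjusted p = 0.578 and 0.683). Nissle, with 8 of 10, differed from conventional with p = 0.474 (Fisher's exact test). Foxp3 was detected in 7 CEC samples and in 7 conventional samples, each against 3 germ-free samples (Fisher's exact test, p = 0.179 each, adjusted p = 1). In each of the 6 comparisons 0% of the 18 to 21 assays compared passed this test, and between 0 and 1 had an unadjusted p under 0.05. With a Ct above 30 also read as undetermined, Il10 was left in 2 CEC, 4 Nissle, 10 conventional and 2 germ-free samples, and the test passed for conventional against germ-free (Fisher's exact test, adjusted p = 0.0229) and for CEC against conventional (0.0271). The sample median Ct was 21.96 in conventional and 22.47 in germ-free samples, and the part of this difference in detection was not tested.

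The 2 assays were measured together in 17 samples, and neither was measured in 7. Foxp3 without Il10 occurred in 4 CEC and 1 germ-free samples, and in no Nissle or conventional sample. A correlation of Il10 with Foxp3 could not be given. CEC, Nissle and germ-free mucosa had 3, 5 and 2 samples with both measured, fewer than the 6 required, and the 7 conventional samples fall into separate clusters of Il10.

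Within a sample, Il10 minus Foxp3 is a difference of 2 Ct values and needs no normalizer. It can be compared between groups, although 0 does not mean equal levels. It was -2.17, -1.21 and -0.81 in the 3 CEC samples, and ran from -2.26 to 1.01 with a median of -0.05 in the 5 Nissle samples. It ran from 0.64 to 10.94 with a median of 2.25 in the 7 conventional samples, and was -0.42 and -0.23 in the 2 germ-free samples. Each of these 7 conventional samples thus lay above the 3 CEC and 2 germ-free ones, while the Nissle range overlapped the conventional one. Samples without both signals have no such value.

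**Figure D4:**
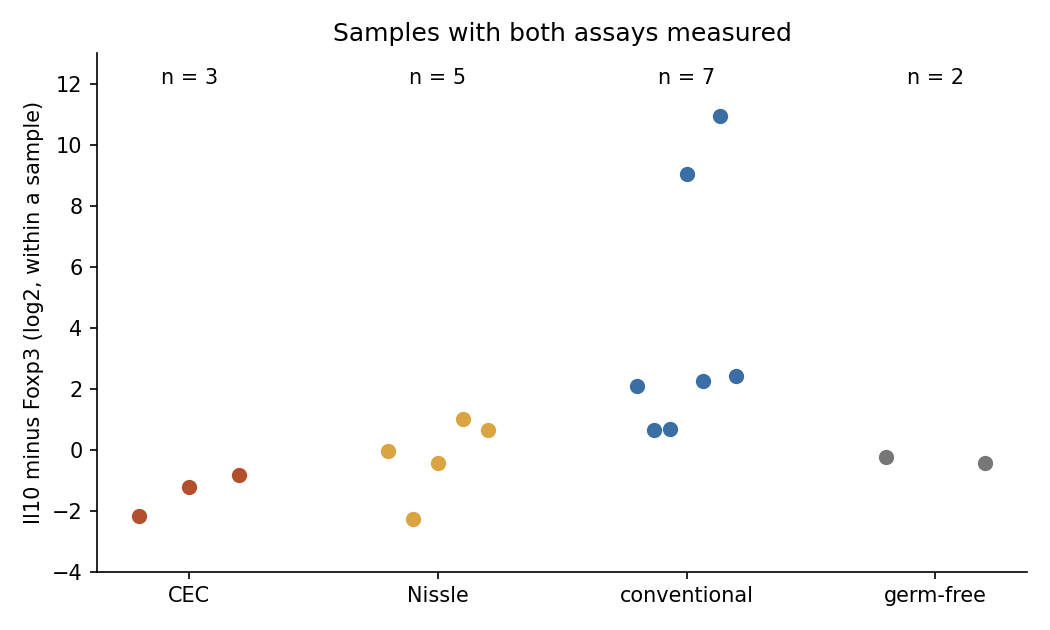
Il10 minus Foxp3 in log2 units within each of the 17 samples in which both were measured, by group. The 7 conventional points run from 0.64 to 10.94, above the 3 CEC points (-2.17 to -0.81) and the 2 germ-free points (-0.42 and -0.23).

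The assays most like each member were found by Spearman's rho over the samples in which both had a measured Ct, as a description of samples that share a panel and a normalizer. Il10 was most like Mm00466886_m1 (rho 0.694 over 23 samples) and Mm00494803_m1 (0.654 over 28 samples), against a median of -0.104 over the 210 assays compared. These assays were picked over the same samples, so a shared order of groups is in part built into the choice. Mm00466886_m1 averaged -0.16 in CEC (6 measured), 0.18 in Nissle (9), 1.29 in conventional (9) and 0.51 in germ-free samples (10). Its other values had been filled in before deposit. These means also take in samples without a measured Il10, which the rho leaves out. Conventional samples were highest in it as in Il10, but germ-free samples came next, while their measured Il10 was lowest on average. Mm00466886_m1 did not repeat the wide spread of Il10: its conventional samples ran from 0.67 to 1.88, with replicates 5, 7 and 8 at 1.12, 1.72 and 0.88. Mm00494803_m1 averaged -0.20 in CEC, -0.37 in Nissle, 0.21 in conventional and -0.06 in germ-free samples. Foxp3 was most like Mm00839222_m1 (rho 0.669) and Mm00435123_m1 (0.623), each over 22 samples, against a median of 0.139 over 195 assays. Mm00839222_m1 averaged -2.53 in CEC, -3.97 in Nissle, -5.38 in conventional and -4.32 in germ-free samples, highest in CEC and lowest in conventional samples, as the measured Foxp3 values were. Mm00435123_m1 averaged -0.92 in CEC, -1.12 in Nissle, -1.16 in conventional and -1.20 in germ-free samples, so it was also highest in CEC but lowest in germ-free samples. Genes are not paired with these 4 IDs in the sources used here.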

How the data were processed

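Per the labels' protocols, RNA of the 40 colonic mucosa samples was extracted with a mirVana kit, and a customized TaqMan OpenArray served for the PCR. The deposited table holds raw Ct values, per the file headers, which call it a truncated example. The threshold setting and quality filters were not given in the sources used here. Groups and replicate numbers were taken from the sample titles. The 405 wells at exactly 40 were read as undetermined. Another 156 values matched, to 2e-06 cycles, the mean Ct of the remaining samples in the same group (for 3 of them with 1 more sample dropped) and were left missing as filled in before deposit. The fold changes and log2 values were computed here from the deposited Ct, as the median over 203 assays minus the Ct.

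A single limma model (version 3.58.1, R 4.3.3) was fitted to all 4 groups over all 224 assays. An assay was tested where both groups had at least 5 measured samples. Samples with and without a measured Ct were counted and tested by Fisher's exact test, and ranks with an exact permutation test over samples with undetermined wells lowest. P-values are two-sided and adjusted by Benjamini-Hochberg over all assays tested within each of 6 comparisons, with a threshold of 0.05. The precision of a value is limited by 10 samples per group and by undetermined wells. The limma and rank steps were tested on simulated data, and Fisher's exact test was not. The limma simulation gave each assay 1 SD for all groups, unlike Il10, whose SD differed between groups. Plots used matplotlib 3.10.9. The members, lists and tests were chosen with earlier results of these data known. Both members were named with all values, and for each the 2 assays with the highest Spearman's rho over at least 20 shared samples. A list of regulatory genes and cell type markers was not used, as the files do not pair IDs with genes, and the labelled tissue was not checked against markers. Alternatives were no normalization, the 153 assays measured in all samples or the mean Ct as the normalizer, undetermined wells at 37.67 cycles, Ct above 30 as undetermined, filled-in values as deposited, 2 groups fitted alone, sample quality weights, a minimum of 3 or 1 measured samples, a replicate block, CEC replicate 6 left out, each sample left out in turn, and conventional replicates 5, 7 and 8 left out, the last chosen after seeing the data.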

Additional observations from a re-analysis of the deposited data

How the results depend on the processing

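The 3 Il10 differences that involve conventional samples kept their direction in every setting that gave a value. For conventional minus germ-free the call ended at 4.39 when only the 2 groups were fitted, and single samples left out gave 3.62 to 4.80. For CEC minus conventional it ended at -4.25 with the 2 groups, and single samples left out gave -4.69 to -3.48. For Nissle minus conventional the call held throughout (limma, adjusted p = 0.00841 to 0.0393). With a Ct above 30 as undetermined, no member kept 5 measured samples in both groups, and Il10 detection passed at 8 samples for conventional minus germ-free and -8 for CEC minus conventional. With single samples left out, Il10 ran from -0.303 to 0.370 for CEC minus germ-free and from -0.666 to 0.105 for CEC minus Nissle, and passed in neither.

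Foxp3 for CEC minus conventional passed at 1.01 with the 2 groups and at 1.08 with sample quality weights, and single samples left out gave 0.864 to 1.23. Nissle minus conventional turned to -0.843 with undetermined wells at 37.67 cycles, and single samples left out gave 0.523 to 1.19. CEC minus Nissle turned to -0.091 without normalization, and single samples left out gave -0.173 to 0.491. With undetermined wells at 37.67 cycles the differences from germ-free were 3.67 for CEC, 1.68 for Nissle and 2.52 for conventional samples, and none passed (limma, adjusted p = 0.167, 0.583 and 0.34).

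The labels do not say that same-numbered samples are paired, and the data do not settle it. Of 10 same-numbered pairs each, 7 of CEC and conventional, 3 of Nissle and conventional and 1 of CEC and Nissle samples correlated above 0.1. The median r was 0.20, -0.03 and -0.06, and the best match had the same number for 4, 1 and 1 of 10. These values were highest for CEC and conventional samples, but no chance level was computed for them, so no pairing is read from them. With the replicate block, CEC minus conventional gave -4.61 for Il10, which did not pass (limma, adjusted p = 0.121), and 1.41 for Foxp3, which did (0.0194). The count of all assays called ranged over the settings, and then with 1 sample left out, from 12 to 80 and 13 to 30 for CEC minus germ-free (18 as reported), 7 to 31 and 10 to 19 for Nissle minus germ-free (14), 20 to 63 and 12 to 42 for conventional minus germ-free (38), 0 to 17 and 2 to 7 for CEC minus Nissle (7), 52 to 106 and 44 to 75 for CEC minus conventional (55) and 22 to 89 and 41 to 66 for Nissle minus conventional (56). The cause was not tested.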
